A study of Homo sapiens with 9 samples.

Results

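MHC class I molecules display peptides from inside the cell to cytotoxic T cells. The 9 genes described here are 4 class I heavy chain genes (HLA-B, HLA-C, HLA-E and HLA-F), B2M, TAP1, TAP2, TAPBP and NLRC5. They were taken as a named list out of the 18354 genes with a named probe, and have 12 probes. A gene was read from its brightest probe, and 7 of the 9 were bright enough to be among the 10862 genes tested. HLA-B was higher in cells without glutamine and slightly higher again in coculture with fibroblasts, the latter a call that leaving out single arrays ended. TAP1 and HLA-E were higher without glutamine and lower again in coculture, though leaving out a single array ended the call of the HLA-E rise. TAPBP was higher and B2M lower without glutamine.

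The cells were HeyA8 (also written Hey8A), an established human ovarian cancer line, measured on Illumina bead arrays with 3 arrays in each of 3 groups: monoculture in complete medium, monoculture in medium lacking glutamine, and coculture with cancer-associated fibroblasts in medium lacking glutamine. Per the labels, cells seeded on day 0 shared their wells with fibroblasts on inserts from day 1 in the coculture group, got new medium on day 4 and were collected after 24 h. Fibroblasts with glutamine present were not analysed here. Since nothing in the labels says that the 3 arrays of a group are separate experiments, p-values measure only a spread that may be technical. Fewer cells of a kind and less RNA per cell cannot be told apart in such bulk samples.

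The class I heavy chain is a membrane protein that folds in the endoplasmic reticulum together with the invariant light chain beta-2-microglobulin, the product of B2M. Peptides cut by the proteasome are pumped into the endoplasmic reticulum by the transporter TAP, a dimer of TAP1 and TAP2, and tapasin, the product of TAPBP, holds the empty class I molecule at the transporter until a peptide fits. NLRC5 is a transactivator that acts at class I promoters, and interferon and NF-kB signalling raise transcription of many genes of the pathway.

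The promoter letters of 4 genes are shown because these called genes moved in different directions without glutamine: HLA-B, TAP1 and TAPBP on chromosome 6 and B2M on chromosome 15. Each run covers 250 bases before to 50 bases from the annotated RefSeq start in GRCh38.p14, read 5′ to 3′ on the gene's strand. Capitals mark matches to any of the motifs named in the next paragraph. HLA-B lies on the minus strand at chr6:31357130-31357429, TAP1 (the more upstream of its 2 annotated starts) on the minus strand at chr6:32853655-32853954, TAPBP on the minus strand at chr6:33314029-33314328, and B2M on the plus strand at chr15:44711267-44711566.
HLA-B: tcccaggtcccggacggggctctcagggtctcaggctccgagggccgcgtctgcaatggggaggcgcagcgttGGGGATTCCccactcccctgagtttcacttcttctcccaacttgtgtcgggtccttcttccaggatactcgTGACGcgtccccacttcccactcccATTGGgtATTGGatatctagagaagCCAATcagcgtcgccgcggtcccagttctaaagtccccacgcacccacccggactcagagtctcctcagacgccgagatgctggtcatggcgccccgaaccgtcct
TAP1: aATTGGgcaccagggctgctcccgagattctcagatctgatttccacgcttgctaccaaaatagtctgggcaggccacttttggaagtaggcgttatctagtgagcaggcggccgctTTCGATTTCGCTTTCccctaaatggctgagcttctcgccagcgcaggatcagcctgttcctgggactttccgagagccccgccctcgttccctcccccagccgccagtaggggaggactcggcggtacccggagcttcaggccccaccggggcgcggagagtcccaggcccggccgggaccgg
TAPBP: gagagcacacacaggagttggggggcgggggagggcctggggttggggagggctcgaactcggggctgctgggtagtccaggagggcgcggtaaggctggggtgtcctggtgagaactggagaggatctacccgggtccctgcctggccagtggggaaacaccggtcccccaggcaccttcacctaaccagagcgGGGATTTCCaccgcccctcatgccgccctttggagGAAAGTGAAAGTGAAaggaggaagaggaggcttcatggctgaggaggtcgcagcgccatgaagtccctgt
B2M: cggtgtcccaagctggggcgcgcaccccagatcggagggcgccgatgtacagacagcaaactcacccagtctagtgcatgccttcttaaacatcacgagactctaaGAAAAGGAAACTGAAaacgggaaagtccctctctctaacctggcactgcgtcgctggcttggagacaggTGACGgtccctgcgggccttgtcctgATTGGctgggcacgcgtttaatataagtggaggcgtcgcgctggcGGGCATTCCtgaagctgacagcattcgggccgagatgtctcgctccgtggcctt

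Short motifs were searched on both strands: the core of the interferon-stimulated response element, GAAANNGAA; an NF-kB motif, GGGNNTTCC; the Y box, CCAAT, which the factor NF-Y binds; the core of the X2 box, TGACG, which factors of the CREB and ATF family bind; and the gamma-activated site, TTCNNNGAA. Promoters were listed for 7 of the 9 genes. The response element core was found at B2M, HLA-F, TAP1, TAP2 and TAPBP, and in 8.11% of all 35116 listed promoters of the same length. In B2M, TAP1 and TAPBP it occurred as 2 overlapping copies. The core as searched has GAAA at its start and GAA at its end, and misses the reverse arrangement. The letters tttcacttc stand unmarked in the HLA-B run above and also occur in the HLA-C promoter. Read on the opposite strand, they have GAA at the start and GAAA at the end. The lack of a match at HLA-B and HLA-C thus does not show that they lack a response element. The NF-kB motif was found at B2M, HLA-B and TAPBP, and in 6.58% of all promoters. This fixed pattern misses longer forms. With 1 more T, gggactttcc stands unmarked in the TAP1 letters above, and its reverse complement ggaaagtccc in those of B2M. A gene without a match may thus still hold such a form. The Y box was found at B2M, HLA-B, HLA-C, HLA-F and TAP1 (34.6% of all promoters), the X2 box core at B2M, HLA-B, HLA-C and TAP2 (24.6%) and the gamma-activated site at the downstream start of TAP1 (7.66%). These are matches of letters in a window and show no binding.

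**Figure D1:**
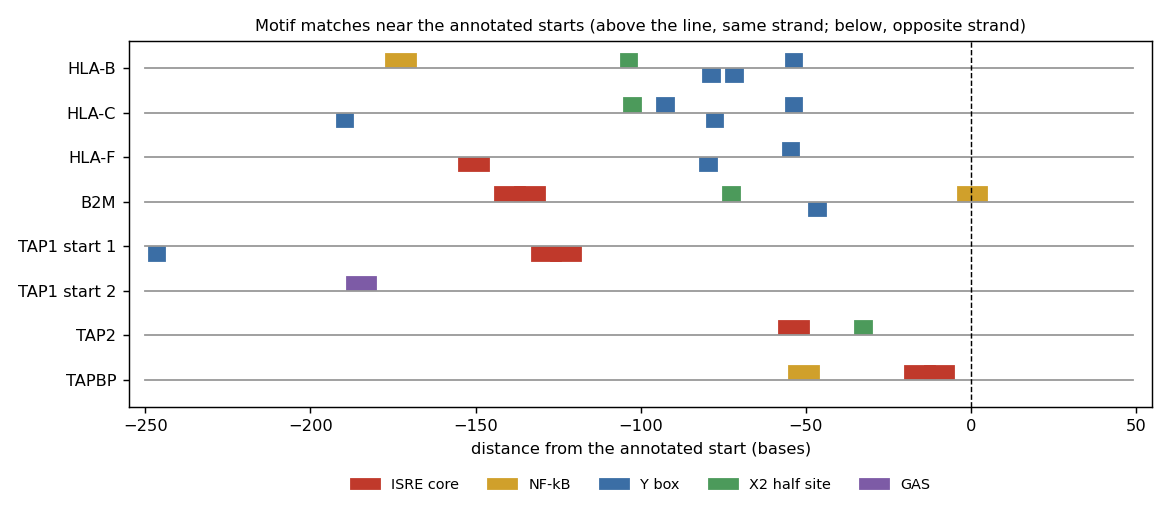
Matches to the motifs along the promoters of 7 genes, by distance in bases from the annotated start (dashed line). Boxes above a line are on the gene's strand and boxes below it on the opposite strand, and the colours name the motif. TAP1 has 2 annotated starts. The overlapping copies of the response element core in B2M, TAP1 and TAPBP appear as one longer red box.

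Levels are the deposited values on a log2-like scale. Values of probes with little signal pile up at a floor, whose upper edge was put at 7.48, and a change near this floor is understated. Levels of different probes are not compared with each other. Differences were tested with limma across all tested genes and called at an adjusted p under 0.05 (Benjamini-Hochberg, two-sided), and folds assume that the scale is log2. Group levels are given as mean ± SD with n = 3 arrays. Keratins KRT7, KRT8 and KRT18 and the ovarian cancer factor PAX8 lay above the floor in all groups, while CDH1 and MUC16, which many ovarian carcinomas express, lay at the floor. Of 8 tested epithelial and ovarian cancer markers, 7 were called lower without glutamine, as were 24.3% of all tested genes.

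Comparing the monocultures asked what the loss of glutamine changed. Of the 7 tested genes 4 rose and 1 fell, where 54.3% of all tested genes were called, 30.0% higher and 24.3% lower. The rises were those of TAP1, TAPBP, HLA-B and HLA-E, and the fall that of B2M. The median log2 difference of the 7 genes was 0.25, beside 0.015 over all tested genes. Among called genes TAP1 alone passed a fold of 1.5, as did 12.9% of all tested genes. The groups did not overlap for 5 of the 7, and for 58.5% of all tested genes.

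HLA-B, a classical heavy chain that presents peptides to T cells, stood at 8.92, 8.77 and 8.93 on the log2 scale in complete medium, at 9.29, 9.24 and 9.20 in deprived monoculture and at 9.41, 9.42 and 9.47 with fibroblasts. The 3 groups did not overlap, and the coculture arrays were the highest. The level rose 1.29-fold without glutamine (log2 difference 0.37, SE 0.063; adjusted p = 4.07e-05), and coculture cells lay 1.48-fold above complete medium (0.56, SE 0.063; adjusted p = 3.82e-07). Of all tested genes 3.25% were at least as much higher in that last comparison. Class I heavy chain genes are alike in sequence and vary between people, and probe sequences were not used here. How far a heavy chain probe also picks up RNA of another heavy chain gene, or misses the alleles of HeyA8, was not tested.

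HLA-E, a heavy chain that presents signal peptides of other class I molecules to receptors of natural killer cells, stood at 9.90, 9.69 and 9.98 in complete medium, 10.15, 10.01 and 10.16 in deprived monoculture and 9.79, 9.78 and 9.86 with fibroblasts. The deprived monoculture arrays were above all others, and the other groups overlapped. Without glutamine it was 1.19-fold higher (log2 difference 0.25, SE 0.074; adjusted p = 0.00752). This difference was 0.16 and no longer called without complete-medium array 2 (adjusted p = 0.0689), and its adjusted p ranged from 0.0026 to 0.0689 over the alternatives.

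HLA-C, another classical heavy chain, stood close above the floor, at 7.63, 7.72 and 7.66 in complete medium, 7.77, 7.72 and 7.85 in deprived monoculture and 7.88, 7.69 and 7.69 with fibroblasts. The groups overlapped, and no comparison called it. The log2 difference of deprivation was 0.11 with a 95% interval from -0.01 to 0.22 (adjusted p = 0.114). Its second probe lay below the edge of the floor on all 9 arrays. HLA-F, a heavy chain that can reach the cell surface without peptide, lay above the edge on 6 of 9 arrays, from 7.41 to 7.66, with groups that overlapped throughout. Its log2 differences had 95% intervals from -0.15 to 0.08 for deprivation and from -0.12 to 0.11 for coculture, and no comparison called it.

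B2M, which encodes the light chain shared by class I molecules, moved against HLA-B and HLA-E in the deprivation comparison. It stood at 13.23, 13.24 and 13.28 in complete medium, 12.91, 12.74 and 12.83 in deprived monoculture and 12.99, 13.00 and 12.95 with fibroblasts. Complete medium was the highest group and deprived monoculture the lowest, without overlap. B2M fell without glutamine, 1.34-fold (log2 difference -0.43, SE 0.057; adjusted p = 2.07e-06). Its second probe gave 13.05, 13.11 and 13.18, then 12.89, 12.77 and 12.67, then 12.86, 12.89 and 12.94. That probe was also lower without glutamine (log2 difference -0.34; adjusted p = 8.69e-05 over all named probes), while its deprived monoculture and coculture arrays overlapped.

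TAP1, one subunit of the peptide transporter, had the largest differences among the 9 genes in both the deprivation and the coculture comparison. It stood at 8.46, 8.31 and 8.36 in complete medium, 9.27, 9.12 and 9.24 in deprived monoculture and 8.74, 8.82 and 8.72 with fibroblasts. The groups did not overlap, with coculture between the monocultures. TAP1 rose 1.78-fold without glutamine (log2 difference 0.83, SE 0.063; adjusted p = 6.95e-10), and 2.8% of all tested genes were at least as much higher.

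TAP2, the partner subunit, lay at or just above the floor, from 7.41 to 7.56 over the 9 arrays, and was below the filter on dim probes. Tested without that filter its log2 difference was 0.03 for deprivation and -0.03 for coculture (adjusted p = 0.67 and 0.742). The 95% interval for deprivation ran from -0.05 to 0.11, and the floor understates changes at this level. TAPBP stood at 9.02, 8.92 and 9.02 in complete medium, 9.44, 9.76 and 9.25 in deprived monoculture and 9.27, 9.29 and 9.35 with fibroblasts. The deprived monoculture arrays were spread widely (SD 0.26), and both deprived groups lay above complete medium. TAPBP rose 1.41-fold without glutamine (log2 difference 0.50, SE 0.09; adjusted p = 8.66e-05), and the difference was 0.31 with the mean of its probes (adjusted p = 0.000303). Its second probe, which lay close to the floor, was also higher (log2 difference 0.12; adjusted p = 0.00939 over all named probes).

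NLRC5 lay at the floor, from 7.37 to 7.51, with 1 of 9 arrays above the edge. It was not tested in the filtered set, and without the filter its log2 differences were 0.04 for deprivation and -0.03 for coculture (adjusted p = 0.463 and 0.739). The 95% interval for deprivation ran from -0.03 to 0.11 on this scale, and a fall from the floor would not be visible.

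**Figure D2:**
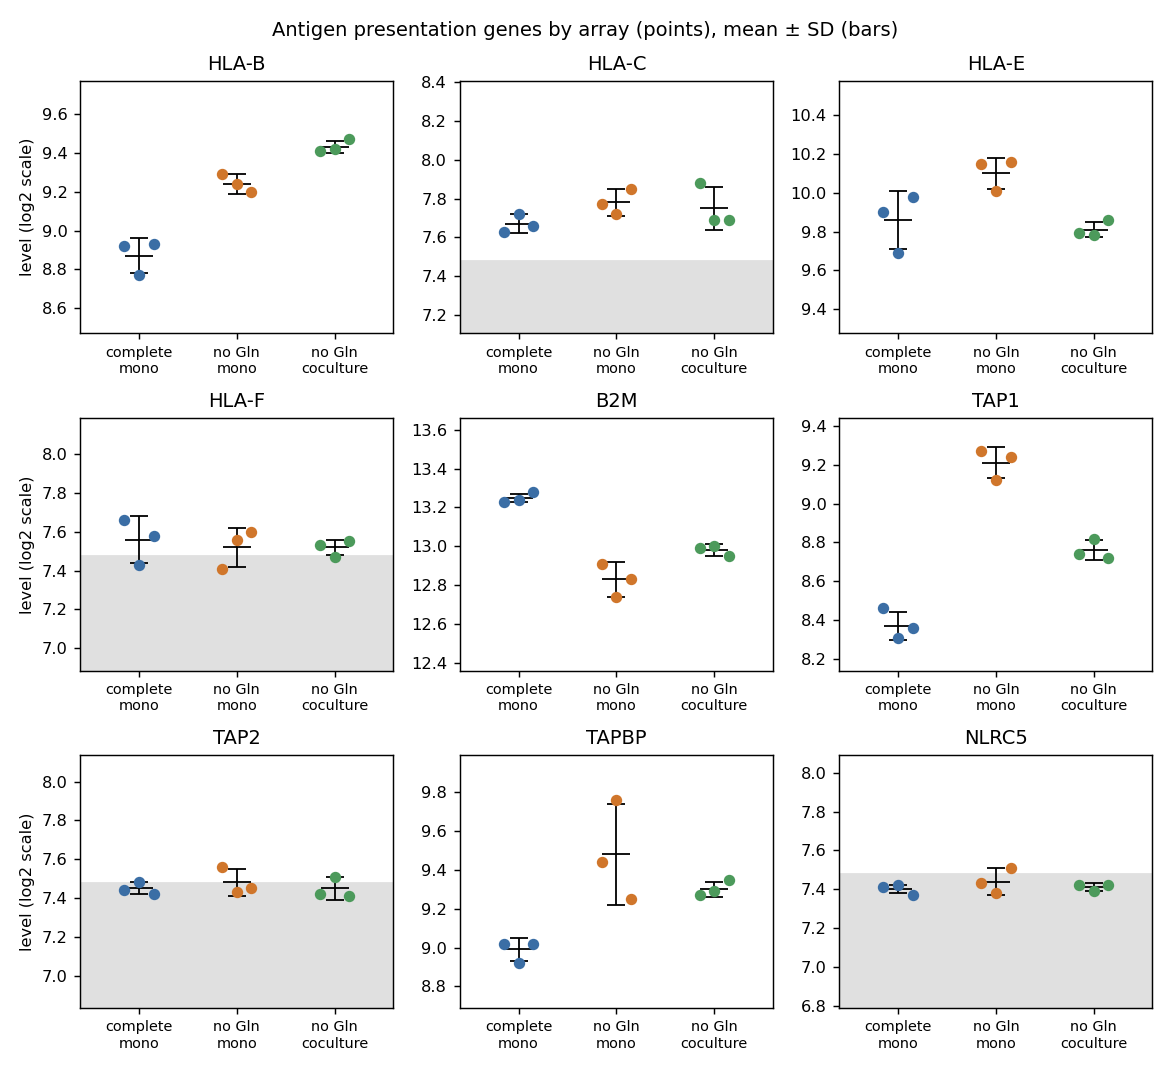
Level of each of the 9 genes (brightest probe, log2 scale) on every array, by group, with "no Gln" for medium lacking glutamine. Points are arrays, bars the mean ± SD of 3 arrays, and the grey area lies below the upper edge of the floor; each panel has its own axis. HLA-B steps up over the 3 groups, TAP1 peaks in deprived monoculture, B2M is highest in complete medium, and TAP2 and NLRC5 lie in or close to the grey area.

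The effect of fibroblasts was read in cells lacking glutamine, as coculture minus monoculture. Of the 7 tested genes HLA-B and B2M were called higher and TAP1 and HLA-E lower, where 27.8% of all tested genes were called, 12.7% higher and 15.1% lower. The median log2 difference of the 7 genes was -0.02, and -0.01 over all tested genes. None of the 7 had a fold of at least 1.5, which 2.59% of all tested genes had with a call, and the groups did not overlap for 4 of the 7, beside 39.9% of all tested genes. Both this and the deprivation comparison use the deprived monoculture arrays, so their differences are not independent. The calls of HLA-B and B2M were both lost when any 1 of 4 arrays was left out: deprived monoculture arrays 2 and 3 and coculture arrays 2 and 3.

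TAP1 fell by 0.45 on the log2 scale in coculture (SE 0.063; 1.36-fold lower; adjusted p = 2.01e-05), and 2.15% of all tested genes were at least as much lower. HLA-E was 1.23-fold lower (log2 difference -0.29, SE 0.074; adjusted p = 0.00495). HLA-B was 1.14-fold higher (0.19, SE 0.063; adjusted p = 0.0266), a call that was lost when any of 4 single arrays was left out: deprived monoculture array 2 (adjusted p = 0.0618), deprived monoculture array 3 (0.081), coculture array 2 (0.0619) and coculture array 3 (0.0939). Its adjusted p ranged from 0.013 to 0.0939 over the alternatives.

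B2M was 1.11-fold higher (0.16, SE 0.057; adjusted p = 0.0456), and 13 of 20 alternatives ended this call, with an adjusted p from 0.0152 to 0.267. Among them were the replicate block (adjusted p = 0.0579), the mean of both probes (0.0648) and the second probe (0.267). TAPBP was not called (log2 difference -0.18, 95% interval from -0.37 to 0.01; adjusted p = 0.155). It was called lower without deprived monoculture array 3 (-0.30; adjusted p = 0.00938) and with array weights (-0.24; adjusted p = 0.0414), and differed by -0.04 without deprived monoculture array 2 (adjusted p = 0.749).

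Fibroblast RNA in the coculture samples would be read together with that of the cancer cells, so 14 fibroblast markers were followed. Of these, 9 lay at the floor in coculture, among them COL1A2, COL3A1, DCN, LUM, PDGFRA, PDGFRB, THY1 and POSTN, while 11 lay there in deprived monoculture and 9 in complete medium. Of the 5 tested, PDPN, FBLN1 and FAP were called higher in coculture than in deprived monoculture (log2 differences 0.83, 0.39 and 0.24) and 0 lower. In that comparison 12.7% of all tested genes were called higher and 15.1% lower. PDPN stood at 11.12 ± 0.08 (SD, n = 3) in complete medium, 9.98 ± 0.05 in deprived monoculture and 10.81 ± 0.13 with fibroblasts. FBLN1 stood at 8.35 ± 0.06, 7.54 ± 0.11 and 7.93 ± 0.03, and FAP at 7.82 ± 0.13, 7.41 ± 0.05 and 7.65 ± 0.02. The summed linear level of the 14 markers was 4590 to 4820 in complete medium, 3210 to 3280 in deprived monoculture and 3930 to 4250 in coculture. It was higher in coculture than in deprived monoculture, and highest in complete medium. Most of the change of this sum between groups came from PDPN, the brightest of the 14, and markers at the floor add only background. Among 10 leukocyte markers with a named probe, CD68 lay above the floor in all groups and CSF1R outside deprived monoculture, while PTPRC, which marks leukocytes, lay at it. The part of fibroblast RNA in the coculture differences was not tested.

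Against complete medium, the deprived coculture still differed in 4 of the 7 tested genes, 3 higher and 1 lower, where 43.0% of all tested genes were called, 22.3% higher and 20.7% lower. None of the 7 passed a fold of 1.5 here (6.41% of all tested genes did with a call), and the groups did not overlap for 4 of them (52.0% of all tested genes). Besides HLA-B, TAP1 was 1.31-fold higher (log2 difference 0.39, SE 0.063; adjusted p = 4.63e-05) and TAPBP 1.25-fold higher (0.32, SE 0.09; adjusted p = 0.00695). The second probe of TAPBP was not called here (0.08; adjusted p = 0.105 over all named probes). B2M was 1.21-fold lower (-0.27, SE 0.057; adjusted p = 0.000584), a difference of -0.16 with quantile normalization repeated (adjusted p = 0.0265). HLA-E was not called (-0.05, 95% interval from -0.20 to 0.11; adjusted p = 0.647). The groups differ here in medium and in the presence of fibroblasts, whose parts cannot be told apart in this comparison.

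**Figure D3:**
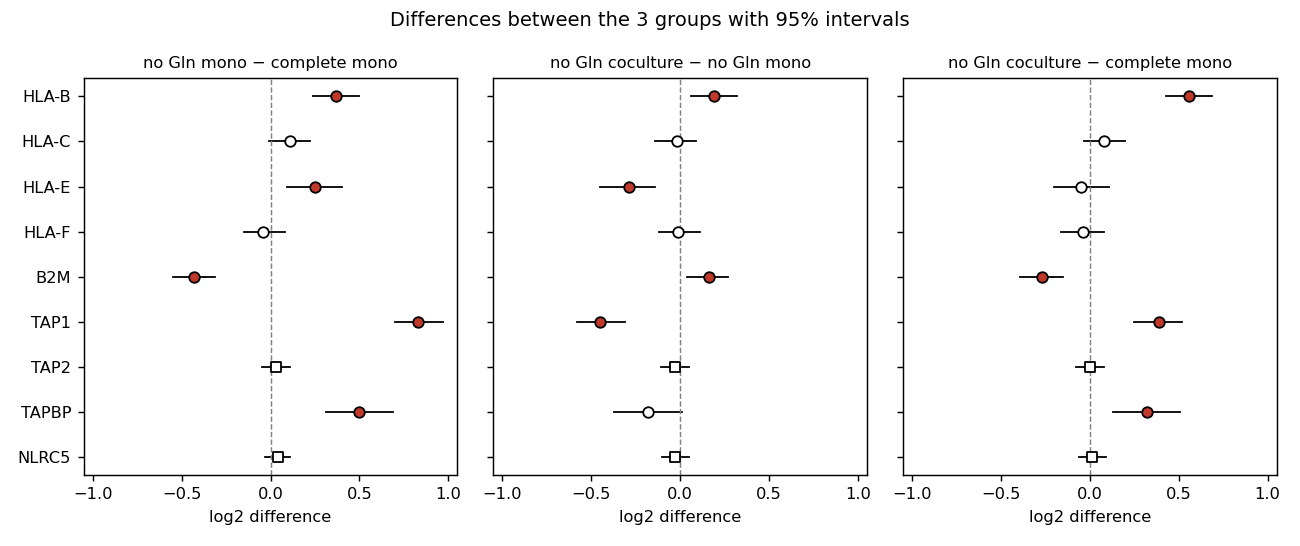
Log2 differences of the 9 genes (first-named group minus second) with 95% intervals in the 3 comparisons. Filled points were called at an adjusted p under 0.05, open points were not, and squares mark the 2 genes at the floor, which were tested without the filter on dim probes. TAP1 ranges from 0.83 without glutamine to -0.45 for coculture, and HLA-B lies to the right of 0 in all panels.

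On the reference, TAP1 lies between PSMB8 and PSMB9, which encode catalytic subunits of the immunoproteasome, and all are known targets of interferon gamma. PSMB8 differed by -0.05 (95% interval from -0.18 to 0.09; adjusted p = 0.593) and PSMB9 by 0.10 (-0.02 to 0.21; adjusted p = 0.142) on the log2 scale without glutamine, so neither was called beside the 1.78-fold rise of TAP1. The PSMB9 probe lay close above the floor, from 7.56 to 7.81 over the 9 arrays, where a change is understated. Of 12 genes that supply peptides, all tested, 5 rose without glutamine (PSMB10, PSME1, PSME3, ERAP2 and LAP3), 1 fell (BLMH) and 6 were not called. Their median log2 difference was 0.10. In the same comparison 54.3% of all tested genes were called, 30.0% higher and 24.3% lower. PSMB10, the remaining immunoproteasome subunit, stood at 10.58 ± 0.02 with glutamine, 10.93 ± 0.05 without it and 10.57 ± 0.04 in coculture. ERAP2, a peptidase that trims peptides in the endoplasmic reticulum, stood at 9.03 ± 0.09 and 9.25 ± 0.15 in the monocultures and at 9.11, 8.98 and 8.90 on the coculture arrays. In coculture 4 of the 12 fell (PSMB10, PSME3, ERAP2 and NPEPPS) and 0 rose, beside 15.1% lower and 12.7% higher of all tested genes.

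Of 7 tested folding chaperones, 4 fell without glutamine and 1 rose, beside 24.3% lower and 30.0% higher of all tested genes. CALR, the chaperone calreticulin of the peptide-loading complex, fell from 9.96 ± 0.12 to 9.38 ± 0.15 (log2 difference -0.58, SE 0.078; adjusted p = 2.18e-06). TAPBPL, a tapasin-like peptide editor, was 1.30-fold higher (0.38; adjusted p = 4.36e-05). GANAB, a glucosidase that trims glycans so that calnexin and calreticulin can bind, was lower in each step, at 9.38 ± 0.08, 8.88 ± 0.17 and 8.45 ± 0.10. In coculture HSPA5 rose, GANAB fell and 5 were not called, where 27.8% of all tested genes were called.

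Regulators of class I genes went both ways. Of 12 tested, 6 rose and 2 fell without glutamine, where 54.3% of all tested genes were called. In coculture 1 rose and 4 fell, where 27.8% of all tested genes were called. IRF1, an interferon-induced activator that binds the response element, stood at 8.65, 8.59 and 8.42 in complete medium, 9.19, 9.21 and 9.24 in deprived monoculture and 8.74, 8.67 and 8.60 with fibroblasts. The deprived monoculture arrays were above all others. IRF1 rose 1.58-fold without glutamine (log2 difference 0.66, SE 0.066; adjusted p = 4.55e-08) and fell by 0.54 in coculture (adjusted p = 3.38e-06). RFX5, a subunit of the factor that binds the X box, moved the other way, at 9.51 ± 0.05, 9.05 ± 0.07 and 9.41 ± 0.08. RELA, an NF-kB subunit, stood at 7.89 ± 0.12, 8.12 ± 0.04 and 7.94 ± 0.07.

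Among receptors and signalling genes of the interferon pathway, 8 of 13 were tested, of which 2 rose and 2 fell without glutamine. The share of all tested genes called there was 54.3%. SOCS1, an inhibitor of JAK kinases, fell from 8.40 ± 0.04 to 7.49 ± 0.03 at the edge of the floor (log2 difference -0.91, SE 0.049; adjusted p = 2.77e-12), and stood at 7.69 ± 0.05 in coculture. IRF9, part of the factor that carries type I interferon signals, was 1.37-fold higher without glutamine (adjusted p = 4.41e-06). The probes of IFNB1 and IFNG, which encode interferons, lay at the floor on all 9 arrays. Of 16 tested interferon-responsive genes outside antigen presentation, 6 rose, 2 fell and 8 were not called without glutamine. This is close to the 54.3% called among all tested genes. IFITM3 and IFITM2, membrane proteins that block virus entry, rose 1.89-fold and 1.55-fold. GBP2, a guanylate-binding protein induced by interferon gamma, fell from 7.93 ± 0.02 to 7.49 ± 0.03. In coculture 1 of the 16, IFI35, was called, 1.26-fold lower, beside 27.8% of all tested genes called. The 2 IFITM genes are closely related, and probes may share their RNA.

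**Figure D4:**
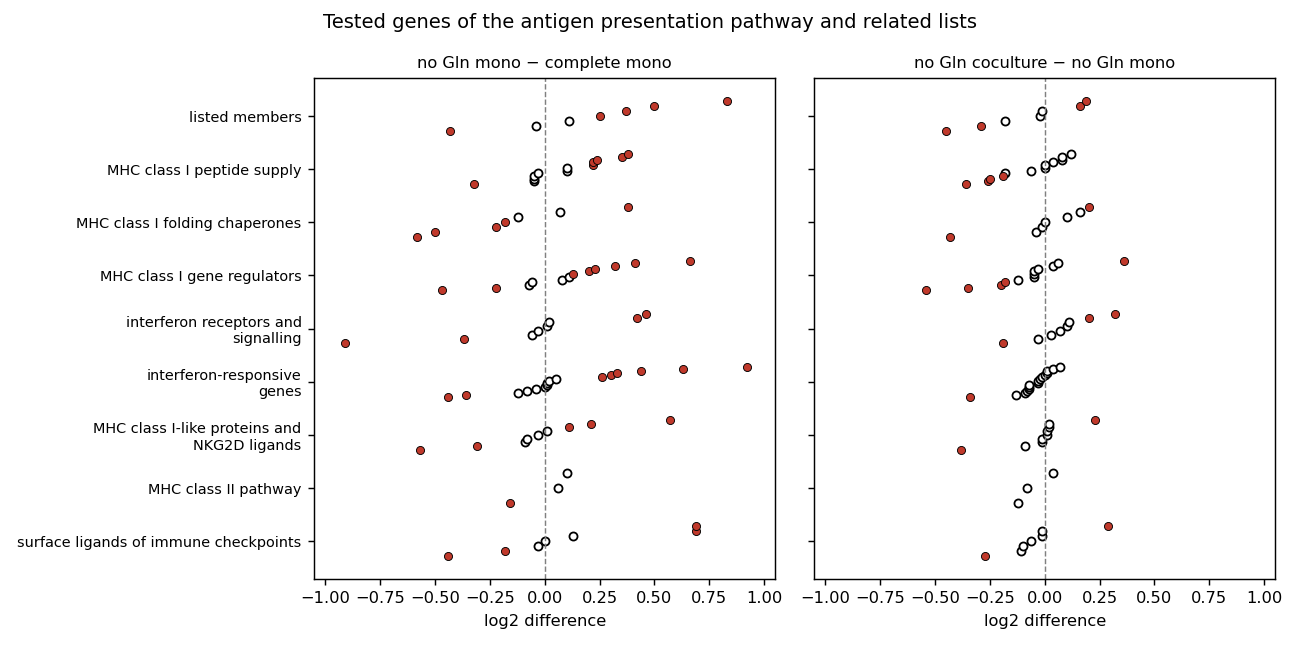
Log2 differences of the tested genes of the list described here and of 8 lists of the pathway and related genes, for deprivation (left) and coculture (right). Each point is a gene, filled where called at an adjusted p under 0.05, and points are spread vertically within a list by size. Calls without glutamine lie on both sides of 0 in every row except that of the class II pathway.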

How the data were processed

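The authors deposited 34476 probe values on a log2-like scale for each of 9 arrays, made with lumi per the submitters' processing notes. The lumi version, settings and background correction are not stated in these sources. Array medians ran from 7.4706 to 7.4731, so log2 differences are relative to the other probes. Precision is limited by the number of arrays, and detection p-values were not used.

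Gene symbols came from the platform annotation: 26366 had 1 symbol, 3 several and 8107 none; 26333 were found in the RefSeq table and 0 symbols changed. The brightest probe stood for a gene, and genes above the median probe mean (7.46) were tested. The floor's upper edge is the 1st percentile mirrored about the mode. The model of 1 mean per group was fitted over all 9 arrays with limma 3.58.1 (lmFit, eBayes with trend) under R 4.3.3, with 6 residual and 13.3 prior degrees of freedom, and tested on simulated data. Tables and plots used Python 3.11.15, pandas 2.3.3 and matplotlib 3.10.9.

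The 9 genes, gene lists, motifs and alternatives were chosen with earlier results of these data known. The naming rule took all 9 genes, up to 3 called genes per list and comparison with a fold of at least 1.5 and groups apart, the 5 genes most alike and the 3 brightest fibroblast markers; other list genes were named after their values were seen.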

Additional observations from a re-analysis of the deposited data

How the results depend on the processing

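With a fold of at least 1.5 the counts of called genes fell to 1399 for deprivation, 281 for coculture and 696 for coculture against complete medium, and those of the 9 genes to 1, 0 and 0. Leaving out each array in turn gave 5459 to 5867, 2463 to 3009 and 4145 to 4801 called genes, and 4 to 5, 2 to 4 and 4 of the 9 genes. Under the alternatives other than that fold, the calls of TAP1, and those of HLA-B and B2M against complete medium in either deprived group, kept direction and threshold. Leaving out single arrays turned the sign of uncalled differences near 0: HLA-C in coculture (-0.09 to 0.01), HLA-E in coculture against complete medium (-0.13 to 0.01), and HLA-F for deprivation (-0.10 to 0.02), coculture (-0.06 to 0.03) and coculture against complete medium (-0.11 to 0.01); the cause was not tested. Same-numbered arrays did not deviate together (correlations from -0.259 to 0.213), so the numbers are not taken as pairs. With the number as a replicate block 5802, 2901 and 4563 genes were called, and of the 9 genes 5, 3 and 4. Shifting arrays to equal medians moved none by more than 0.00771. Repeated quantile normalization moved B2M from -0.43 to -0.35 for deprivation and from -0.27 to -0.16 (adjusted p = 0.0265) for coculture against complete medium; the cause was not tested. TAP2 and NLRC5, below the filter, have values only without it. The floor limits what can be seen of HLA-C, HLA-F, TAP2 and NLRC5 and, outside the 9 genes, of PSMB9.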

Other observations

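Class I-like proteins and ligands of the natural killer receptor NKG2D moved both ways. Of 9 tested, 3 rose and 2 fell without glutamine, where 54.3% of all tested genes were called. ULBP2, an NKG2D ligand, stood at 8.15 ± 0.05 (SD, n = 3) with glutamine, 8.72 ± 0.03 without it and 8.35 ± 0.07 in coculture, and was called in both steps. MICB, another such ligand, was 1.24-fold lower without glutamine (adjusted p = 0.000114). MICA, next to HLA-B on the reference, was not called (log2 difference -0.08; adjusted p = 0.0973). PROCR, a class I-like receptor of protein C, stood at 9.68 ± 0.07, 9.11 ± 0.11 and 9.34 ± 0.09.

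Of 7 tested checkpoint ligands 2 rose and 2 fell without glutamine, beside 54.3% of all tested genes called. PVR, a ligand of the receptors TIGIT and DNAM-1, stood at 8.45 ± 0.04, 9.13 ± 0.07 and 8.87 ± 0.10, and its rise of 0.69 on the log2 scale was 0.31 with the mean of its probes. TNFRSF14, a ligand of BTLA, stood at 8.23 ± 0.08, 8.92 ± 0.06 and 8.82 ± 0.10. CD47, a ligand of the phagocyte receptor SIRP-alpha, fell from 9.36 ± 0.12 to 8.91 ± 0.11 and stood at 9.20 ± 0.08 in coculture. CD274, which encodes PD-L1, lay near the floor, at 7.47 ± 0.05, 7.47 ± 0.04 and 7.46 ± 0.08. Of 15 genes of the class II pathway 12 had a named probe and 3 were bright enough to be tested. CD74, the invariant chain, lay below the edge of the floor on all 9 arrays, and HLA-DRA, at 7.96 ± 0.10, 8.06 ± 0.03 and 7.94 ± 0.08, was not called in any comparison.

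The mean centred level of the 7 tested genes ranged from -0.193 to -0.087 with glutamine, from 0.099 to 0.114 without it and from 0.006 to 0.027 in coculture. This mean covers genes that moved apart. TAP1 and TAPBP had the largest rises without glutamine, B2M fell, HLA-C and HLA-F were not called, and HLA-B was highest in coculture. The genes most like this mean over the 9 arrays were ESRRA (Pearson r = 0.989), NOP14 (0.988), DIABLO (0.983), KRT10-AS1 (0.983) and BRMS1 (0.982). The 9 arrays form 3 groups, so this likeness is mostly that of the group means.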
